A study of Drosophila melanogaster with 8 samples.

Results

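Distal intronic NELF-E sites are places inside introns, away from any annotated transcript start, where NELF-E was found on chromatin by ChIP-seq, the sequencing of DNA fragments pulled down with an antibody. The peaks of 4 NELF-E lists were merged into 8225 sites, and 6788 of these were held by at least 2 lists. Of those 6788 sites, 367 (5.41%) overlapped a gene body but neither an exon nor a window of 1500 bp on either side of a transcript start. Another 6194 sites (91.2%) overlapped such a window and are called promoter sites here. The remaining 227 were exonic (99) or intergenic (128). A further 210 distal intronic sites were seen in 1 list alone, 175 of them in mock 1, and were not counted as members.

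The lists came from Kc167 cells, a female line derived from Drosophila melanogaster embryos. Mock cells were nucleofected without RNA. Cells named siAGO2 received 100 pmol of siRNA directed at AGO2, the Argonaute protein of the siRNA pathway, and both were collected 3 days later. Each group had 2 replicates, mock 1, mock 2, siAGO2 1 and siAGO2 2, and the study used them to learn whether NELF-E recruitment depends on AGO2. No source says that replicates were separate cultures, so a spread between replicates may be technical.

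NELF-E belongs to NELF, the negative elongation factor, which together with DSIF holds RNA polymerase II paused just downstream of the start site. The kinase P-TEFb releases the polymerase, and NELF then leaves it. NELF is therefore known mainly from promoters, but transcribed enhancers, many of which lie in introns, also carry paused polymerase. In Drosophila the GAGA factor binds GAGAG elements at many paused promoters and helps to keep them open.

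The sequences under the summits of 6 members are shown first because these sites had the highest mean percentile across the 4 lists, leaving out sites on a chromosome arm for which no sequence is given. Each line gives the plus strand of dm6 from 75 bases before the summit to 75 after it, and capitals mark matches to any of the 12 motifs searched. The host genes are tara (a transcriptional coregulator), alpha-Man-Ia (a Golgi mannosidase), Kdm2 (a histone demethylase), Ptp61F (a tyrosine phosphatase that restrains JAK/STAT signalling), Tlk (the Tousled-like kinase) and CG1677.
tara, chr3R:16232890-16233040: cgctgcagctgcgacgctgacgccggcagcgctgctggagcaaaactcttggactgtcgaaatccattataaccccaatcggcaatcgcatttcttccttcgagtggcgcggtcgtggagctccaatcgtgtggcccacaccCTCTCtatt
alpha-Man-Ia, chrX:10319352-10319502: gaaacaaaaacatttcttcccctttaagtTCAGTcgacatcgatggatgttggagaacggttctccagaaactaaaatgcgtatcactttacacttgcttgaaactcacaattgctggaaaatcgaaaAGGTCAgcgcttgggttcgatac
Kdm2, chr3R:9057084-9057234: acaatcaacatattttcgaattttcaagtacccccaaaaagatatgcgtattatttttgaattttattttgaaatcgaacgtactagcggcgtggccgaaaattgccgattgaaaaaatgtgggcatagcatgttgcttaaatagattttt
Ptp61F, chr3L:1366869-1367019: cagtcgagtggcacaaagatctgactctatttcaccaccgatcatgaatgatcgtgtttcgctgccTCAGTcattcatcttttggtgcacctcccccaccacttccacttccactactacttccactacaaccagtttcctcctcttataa
Tlk, chrX:3743122-3743272: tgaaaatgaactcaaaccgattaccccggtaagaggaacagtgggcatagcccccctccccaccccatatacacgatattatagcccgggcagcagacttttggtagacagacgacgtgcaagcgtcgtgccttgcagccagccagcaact
CG1677, chrX:7301081-7301231: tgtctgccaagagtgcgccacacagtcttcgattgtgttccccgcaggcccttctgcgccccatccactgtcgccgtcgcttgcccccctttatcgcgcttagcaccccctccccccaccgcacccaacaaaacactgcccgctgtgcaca
Of these 6 strongest sites, only tara held a GAGAG element, written CTCTC on this strand, and 3 of them (Kdm2, Tlk and CG1677) matched none of the 12 motifs in the printed bases.

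A second set of 3 sequences shows the element that was most frequent among the members. They are the highest ranking members of all 4 lists with 3 or more GAGAG matches within the printed bases, and that count was chosen after the motif values were seen. Their hosts are Eip74EF (an ETS transcription factor of the early ecdysone response), CG32572 and Dad (an inhibitory Smad). In these 3 sequences capitals mark the GAGAG matches only.
Eip74EF, chr3L:17590887-17591037: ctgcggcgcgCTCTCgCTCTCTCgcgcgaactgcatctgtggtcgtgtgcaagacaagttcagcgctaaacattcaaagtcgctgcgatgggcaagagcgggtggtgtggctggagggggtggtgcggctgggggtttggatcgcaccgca
CG32572, chrX:16723493-16723643: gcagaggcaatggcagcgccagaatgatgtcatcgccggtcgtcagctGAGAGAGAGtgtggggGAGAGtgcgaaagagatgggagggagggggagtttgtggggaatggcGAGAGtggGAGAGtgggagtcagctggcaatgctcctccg
Dad, chr3R:17065400-17065550: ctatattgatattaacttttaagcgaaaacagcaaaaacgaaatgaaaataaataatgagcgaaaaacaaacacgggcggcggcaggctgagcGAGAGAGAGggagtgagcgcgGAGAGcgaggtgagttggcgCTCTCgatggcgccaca
The matches form runs on 1 strand in Eip74EF (3 matches) and CG32572 (6 matches), and lie on both strands in Dad (5 matches).

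Because the lists give no read totals, depth was read from the background fragments behind the deposited fold and p-value at each summit. That background was 4.46 and 2.19 fragments in mock 1 and mock 2, and 1.18 and 1.48 fragments in siAGO2 1 and siAGO2 2. The median member summit held 50 and 27 fragments in mock, against 16 and 19 in siAGO2, compared with 86, 46, 29 and 33 at promoter sites. Both mock libraries were deeper than both siAGO2 libraries, so depth and treatment cannot be told apart in the comparisons between them. A constant added to both terms of the fold matters more where the background is low, which makes folds only roughly comparable between libraries. A comparison of 2 lists against 2 cannot go below an exact permutation p of 0.33, and the values of each list are given for that reason. Shares carry 95% Wilson intervals, which cover counting error over sites only, since sites of 1 library are not replicates.

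The members were weaker than promoter sites in every list. Among sites held by all 4 lists (161 members and 4688 promoter sites), the median deposited fold of members was 5.92, 6.32, 6.14 and 5.44 in mock 1, mock 2, siAGO2 1 and siAGO2 2. The corresponding promoter medians were 9.60, 9.60, 9.92 and 9.59. The ratio of the medians was thus 0.617, 0.658, 0.619 and 0.568, with a mean of −0.70 ± 0.0876 on the log2 scale (SD, n = 4). It was below 1 in 4 of 4 lists, which gives the smallest p that 4 lists allow (exact sign-flip test, two-sided p = 0.125). The 125 exonic or intergenic sites held by all 4 lists had median folds of 6.38, 7.00, 5.96 and 5.89, near those of the members.

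Members also had narrower peaks than promoter sites. Their median width was 519, 436, 332 and 321 bp in mock 1, mock 2, siAGO2 1 and siAGO2 2, and that of promoter sites was 600, 493, 436 and 486.5 bp. The ratio was 0.865 and 0.884 in mock, against 0.761 and 0.660 in siAGO2 (mean log2 ratio −0.34 ± 0.195, SD, n = 4; exact sign-flip p = 0.125). The 2 groups did not overlap in this ratio. Exonic or intergenic sites of all 4 lists had median widths of 489, 403, 305 and 346 bp, so narrow peaks were not particular to introns.

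The order of the 161 members was reproducible within a treatment. Percentiles of the peak score within a list had a Spearman correlation over the 161 sites of 0.861 between the mock lists and 0.729 between the siAGO2 lists, and of 0.701 to 0.753 across treatments. Summits of the same member in 2 lists lay 19 to 35 bp apart in the median. These coefficients describe sites that share their libraries and carry no test.

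Individual members reached promoter-like folds. The site 7.31 kb into tara (chr3R:16232458-16233284) ranked highest, with folds of 20.3 and 19.2 in mock 1 and mock 2, against 15.2 and 22.7 in siAGO2 1 and siAGO2 2. The site in alpha-Man-Ia (chrX:10319169-10319921) had folds of 14.6, 30.0, 18.4 and 16.1 in the same order. Kdm2 (chr3R:9056169-9057463) had 17.8, 18.9, 22.9 and 22.4. At tara and alpha-Man-Ia the folds of the 2 treatments overlapped, whereas at Kdm2 both siAGO2 folds lay above both mock folds although its percentile did not (90.3 and 82.8 in mock, 82.4 and 84.3 in siAGO2).

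Ptp61F (chr3L:1366610-1367349) carried its site 108.3 kb from the gene's 5′ end but 3684 bp from the nearest start, with folds of 13.5, 17.2, 18.4 and 16.0. Tlk (chrX:3741892-3744131) held the widest of these peaks, 2210 bp in mock 1, with folds of 20.8, 21.8, 17.8 and 15.7. CG1677 (chrX:7299447-7301557) had 15.5, 17.4, 10.8 and 10.6. Tlk and CG1677 were lower in both siAGO2 lists than in both mock lists, and Ptp61F overlapped.

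The other 4 of the 10 highest ranking members were in upd3 (a cytokine that activates JAK/STAT signalling), in tara a second time at 10.9 kb, in bves (a Popeye domain protein) and in B4. The upd3 site (chrX:18282282-18282751) had folds of 9.74, 9.20, 12.5 and 12, and it held 3 GAGAG elements and an AP-1 motif. The bves site had folds of 6.5 and 9.64 in mock against 19.6 and 13.2 in siAGO2. At upd3 and bves both siAGO2 folds lay above both mock folds. The percentiles of upd3 went the other way (79.7 and 76.7 in mock, 70.9 and 72.9 in siAGO2). Those of bves overlapped (67.5 and 74.5 in mock, 79.8 and 72.5 in siAGO2). B4 had folds of 7.65, 11.5, 11.3 and 9.73. All 10 of these sites had a NELF-E site at a start of their own host gene.

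**Figure D1:**
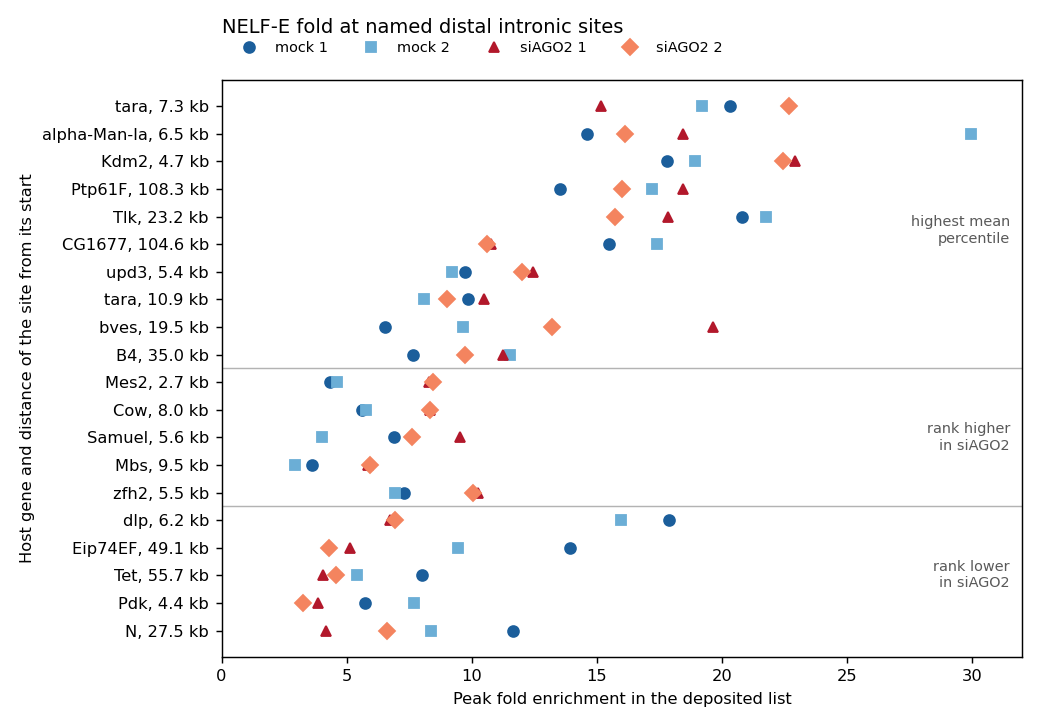
Deposited peak fold (x axis) of 20 named distal intronic sites held by all 4 lists, labelled by host gene and distance from its 5′ end (y axis), with 1 symbol per list. The upper block holds the 10 sites of highest mean percentile, the middle and lower blocks the 5 sites whose shared-site rank was most clearly higher or lower in siAGO2. The highest fold is the 30.0 of alpha-Man-Ia in mock 2, and the lower block shows dlp falling from 17.9 and 16.0 in mock to 6.72 and 6.93 in siAGO2.

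Position within genes was described next. The members lay a median of 4871 bp from the nearest annotated start (interquartile range 2774 to 7579.5 bp), in introns with a median length of 15757 bp. In 228 of 367 members (62.1%, 95% Wilson interval 57.1 to 66.9) the intron was the first of at least 1 transcript, whereas first introns made up 38.8% of all distal intronic bases. When the longest transcript of each gene was used alone, the shares were 41.4% of members and 27.4% of bases. The X chromosome held 89 members, or 10.3 per Mb of distal intronic sequence, compared with 7.65 per Mb over the major autosome arms (272 members). The share held by all 4 lists was 41% (30.8 to 52.1) for the 78 members within 2500 bp of a start and 50.0% (36.4 to 63.6) for the 48 members beyond 10000 bp, and these intervals overlap.

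Host genes usually had NELF-E at their own start as well. The 367 members fell in 226 host genes when each member was given 1 host, and 199 of these (88.1%, 83.2 to 91.7) had a promoter site at one of their own starts. The share was 61.1% (59.8 to 62.4) among the 5429 genes with distal intronic sequence. Host genes are long, but among genes with at least 10 kb of distal intronic sequence it was still 86.7% (80.5 to 91.1) for 158 hosts and 57.2% (54 to 60.4) for 907 genes without a member. At hosts with a bound start, the fold of a member was 0.299, 0.218, 0.182 and 0.182 times that of the start in mock 1, mock 2, siAGO2 1 and siAGO2 2, in the median. The member exceeded the start at 20 of 334, 12 of 321, 6 of 197 and 6 of 193 such members.

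Some genes held several members, although most hosts held 1. Of all genes with distal intronic sequence, 4.38% (238 of 5429) overlapped a member. There were 158 hosts with 1 member and 40 with 2, and the 28 hosts with 3 or more held 129 of the 367 members. tara had 13, which is 488 per Mb of its distal intronic sequence against 8.05 per Mb over all genes. Eip74EF had 9, the nuclear receptor gene Hr4 had 7, and 4 genes had 6, namely Mnt (a Myc antagonist), Raf (the kinase that signals from Ras to MAP kinase), brat (a translational repressor) and ush (a partner of GATA factors).

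In tara, 11 of the 13 members were in all 4 lists. They were spread over 26 kb of a gene of 34.7 kb, on both sides of an internal start 17.2 kb from its 5′ end. The promoter sites of tara lay at that internal start and 15.8 kb from the 5′ end, and none was at the 5′ end itself. The folds of the 13 members ran from 2.97 to 20.3 in mock 1, from 3.09 to 19.2 in mock 2, from 4.56 to 15.2 in siAGO2 1 (11 members) and from 3.30 to 22.7 in siAGO2 2 (12 members). These ranges overlapped between the treatments, and those of siAGO2 leave out the members absent from its lists.

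In Eip74EF, 9 members were in both mock lists and 5 in each siAGO2 list. The 4 nearest the 5′ end, at 2.21 to 12.3 kb, were weak, with folds of 2.20 to 6.18 in mock, and 3 of them were in no siAGO2 list. Deeper in the gene the folds varied more. They were 2.92 and 4.56 in mock at 39.6 kb and 5.52 and 4.17 at 45.3 kb, within the range of those 4 members. At 28.4 kb the folds were 16.2 and 9.77 in mock against 15.9 and 8.28 in siAGO2, and at 55.6 kb they were 13.7 and 7.72 in mock and 7.2 and 5.41 in siAGO2.

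**Figure D2:**
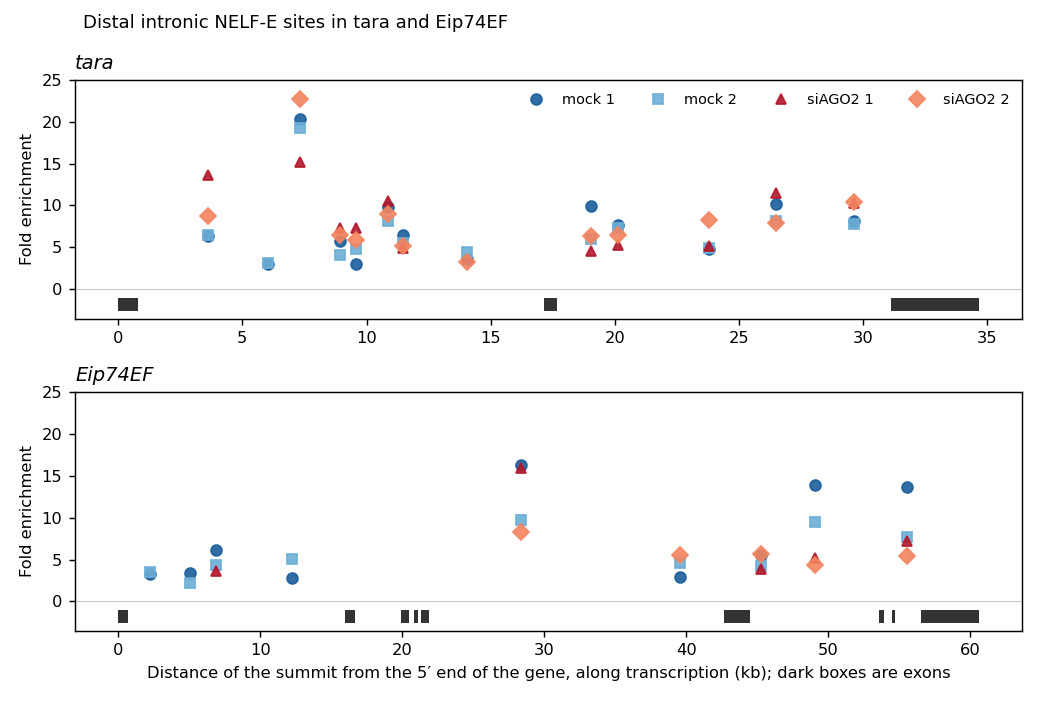
Deposited fold (y axis) of each distal intronic member in tara and Eip74EF against the distance of its summit from the 5′ end of the gene in kb (x axis), with 1 symbol per list and exons as dark boxes. In tara, 11 of 13 members carry all 4 symbols, while in Eip74EF the 3 members at 2.21, 5.05 and 12.3 kb carry mock symbols only.

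Genes of the ecdysone response, the transcriptional cascade set off by the moulting hormone to which Kc cells respond, hosted more members per length than the other gene lists. Members fell in 12 of the 16 listed genes with distal intronic sequence, 39 members in all or 69.6 per Mb, compared with 8.05 per Mb over all genes. Besides Eip74EF and Hr4 they included EcR (the ecdysone receptor, 5 members), Eip75B (a nuclear receptor, 5), ftz-f1 (a nuclear receptor of the prepupal stage, 4), br and Hr3 (2 each). All 4 ftz-f1 members were in all 4 lists. The strongest, at chr3L:18758860-18759838, had folds of 11.3, 13.1, 8.06 and 10.8. That of Hr4, at chrX:1963339-1964438, had 7.67, 7.66, 10.6 and 10.2, and its siAGO2 folds lay above its mock folds while those of ftz-f1 lay below. The percentiles of the Hr4 site overlapped (63.3 and 60.3 in mock, 55.6 and 62.1 in siAGO2).

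The other lists had lower densities. EGF receptor and Ras genes had 10 members in 4 of 17 genes (37.1 per Mb), 6 of them in Raf. Genes of hemocyte identity, the blood cell program, had 9 members in 3 of 17 genes (37.2 per Mb), in ush (6), pnt (2, an ETS factor that is also on the EGF receptor list) and zfh1 (1). The AP-1 and JNK list had 1 member each in kay (Fos) and puc (a phosphatase that restrains JNK). Axon guidance and adhesion genes had 4 members in 4 of 38 genes (2.25 per Mb). These lists were chosen by hand, and the densities are descriptions with no test.

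Among their members, Raf at 10.6 kb had folds of 13.7, 11.8, 14.5 and 10.2, and kirre (an adhesion protein of myoblast fusion) had 13.4, 11, 13.7 and 9.88. puc had 5.19, 5.03, 3.61 and 3.71, lower in both siAGO2 lists. Dscam1 (a receptor of neurite self-avoidance) had 4.69, 7.04, 6.14 and 5.38, which overlapped. On the ecdysone response list, vri (a transcriptional repressor of the circadian clock) had 5.32, 9.94, 6.96 and 10.1, which overlapped as well.

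The sequence around the summits was searched for 12 short motifs on both strands, in windows reaching 100 bp to either side of the summit. The motifs were those of the GAGA factor (GAGAG), of AP-1 (TGANTCA), of DREF (TATCGATA), of the initiator core (TCAGT), of the TATA box (written TATAAA), of the pause button (CGGACG), of STAT (TTCNNNGAA), of Zelda (CAGGTAG), of blood cell factors such as Serpent (GATAAG), of nuclear receptors (AGGTCA), of Scalloped (GGAATG), and the dinucleotide repeat of C and A (ACACACAC). Matches to 1 motif may overlap those to another. GAGAG was present in 190 of 367 members (51.8%, 46.7 to 56.8). It was in 32.4% (31.2 to 33.5) of promoter sites, 37.9% (31.8 to 44.3) of other distal sites, 25.9% (22.3 to 29.9) of windows 1000 bp to either side of members, and 21.3% of tiles of distal intronic sequence with no peak.

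The GAGAG share hardly varied with the strength of the member. It was 50.0%, 54.5% and 50.8% in the weakest, middle and strongest of 3 equal groups by mean percentile, and 55.3% (47.6 to 62.7) in members of all 4 lists compared with 53.5% (43.8 to 62.9) in members of both mock lists and no siAGO2 list. At 3 or more matches the contrast was wider, 24.0% of members, 7.06% of promoter sites and 1.70% of tiles. Members were richer in G and C than tiles (median GC content of 51.2% against 40.3%), so windows of GC content between 45.3 and 55.2% were compared as well. There GAGAG was in 60.1% (53.0 to 66.8) of members, 33.9% (32.3 to 35.5) of promoter sites, 42.1% (34.3 to 50.4) of neighbouring windows and 27.1% of tiles. Other distal sites of that GC content held it at 44.2% (35.4 to 53.4), an interval that overlaps that of the members. Within 50 bp to either side of the summit the share was 33.0% of members and 17.2% of promoter sites.

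The CA repeat was in 16.9% (13.4 to 21.1) of members, 6.89% of promoter sites and 4.43% of tiles. Other distal sites held it at 12.3% (8.67 to 17.2), an interval that overlaps that of the members. At a GC content of 45.3 to 55.2% it was in 23.4% (17.9 to 30.0) of members and 18.6% (12.5 to 26.7) of other distal sites. Core promoter motifs showed another order. TCAGT was in 28.3% (24.0 to 33.2) of members, close to the 28.4% of tiles, and in 37.0% of promoter sites. CGGACG was in 5.99% (3.99 to 8.91) of members, 10.2% (9.46 to 11) of promoter sites, 2.67% of tiles and 1.16% (0.533 to 2.51) of neighbouring windows. This motif is itself rich in G and C, and it was not compared between windows of like GC content. TATAAA was in 10.1% (7.40 to 13.6) of members and 23.9% of tiles, but at a GC content of 45.3 to 55.2% in 6.91% (4.09 to 11.5) and 8.46%, so the difference was smaller between windows of like composition. TATCGATA was in 0 of 367 members, which allows up to 1.04% (Wilson upper bound), and in 1.53% of promoter sites.

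**Figure D3:**
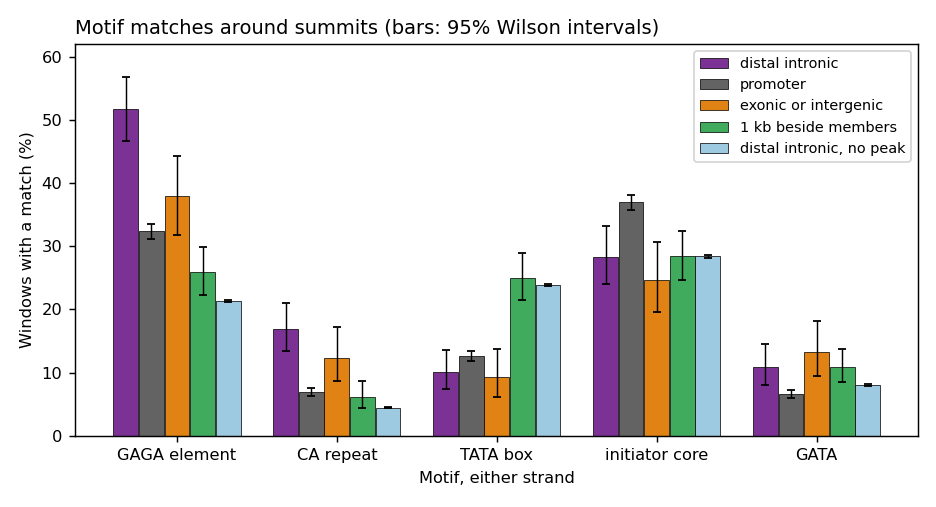
Share of windows reaching 100 bp to either side of a summit with at least 1 match to 5 of the 12 motifs (y axis, %), by motif (x axis), for members, promoter sites, exonic or intergenic sites, windows 1000 bp beside members and distal intronic tiles with no peak. Bars carry 95% Wilson intervals. The GAGA element stands at 51.8% in members against 32.4% in promoter sites, and the CA repeat at 16.9% against 6.89%.

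The siAGO2 lists held fewer members than the mock lists. The mock lists held 358 and 347 of the 367 members (97.5% and 94.6%), and the siAGO2 lists 219 and 215 (59.7% and 58.6%). The group means were 352.5 ± 7.78 and 217.0 ± 2.83 members (SD, n = 2), a difference of −135.5. The exact permutation test gave its smallest possible value (two-sided p = 0.33). Members were picked by how many of these same lists held them, and a site in both mock lists alone qualified. The size of the difference therefore depends on that rule, and the test cannot decide whether the treatments differ. Promoter sites were held at 99.5%, 94.8%, 82.0% and 86.6% by mock 1, mock 2, siAGO2 1 and siAGO2 2. Other distal sites were held at 96.9%, 93.0%, 69.6% and 69.6% in the same order. Since a site needed 2 lists, leaving out 1 mock list also removed members, and the difference was then −37.5 (without mock 1) or −43.0 (without mock 2).

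**Figure D4:**
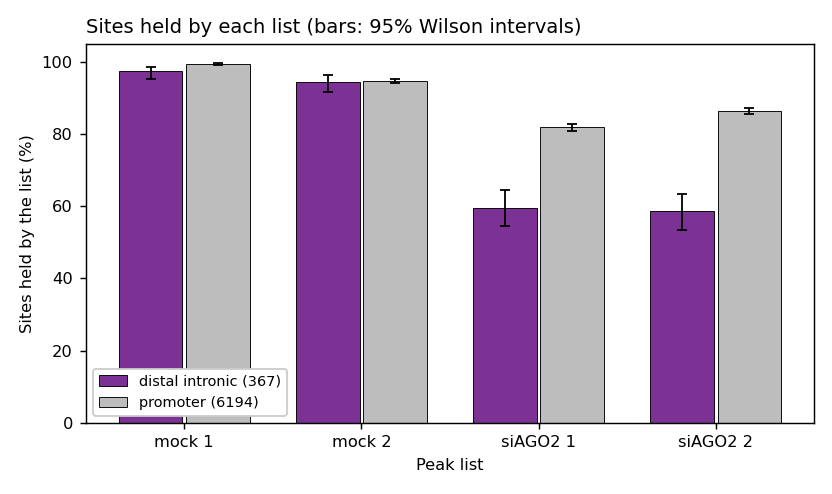
Percentage of the 367 members and of the 6194 promoter sites held by each of the 4 lists (y axis), with 95% Wilson intervals. Members stand near promoter sites in mock 1 and mock 2 (97.5% and 94.6%) and well below them in siAGO2 1 and siAGO2 2 (59.7% and 58.6%, against 82.0% and 86.6%).

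By occupancy, 161 members (43.9%) were in all 4 lists and 83 in 3 lists, of which 36 lacked siAGO2 1, 41 lacked siAGO2 2, 4 lacked mock 1 and 2 lacked mock 2. A further 27.5% of members (23.2 to 32.3) were in both mock lists and neither siAGO2 list. The same held for 9.94% of all 6788 sites and for 8.61% (7.93 to 9.33) of promoter sites. Among other distal sites the share was 18.1% (13.6 to 23.6), an interval that overlaps that of the members. The reverse, both siAGO2 lists and no mock list, was seen at 1 member, in kl-5, and at 0.177% of all sites. The last 21 members were in 1 list of each treatment.

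These counts depended on the length of the lists, which were 7944, 6933, 5904 and 6206 peaks. With the 5904 best peaks of each list, 263 members remained, all of them overlapping members of the full lists. Of these, 30 (11.4%, 8.11 to 15.8) were in both mock lists and neither siAGO2 list, and 10 (3.8%, 2.08 to 6.86) the reverse. Promoter sites gave 157 (2.86%, 2.45 to 3.34) and 77 (1.40%, 1.12 to 1.75). The members held per list were then 221, 237, 204 and 184, which did not overlap between treatments. The same was true of promoter sites, of which 5241, 5114, 4980 and 5062 of 5488 were held.

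Members were weaker than promoter sites, so sites were also compared within ranges of their mean mock percentile. Strength may still differ between classes within a range. The part of strength or depth in the shares below was not tested. Among sites in both mock lists with a mean mock percentile between 25 and 50, 31 of 131 members (23.7%, 17.2 to 31.6) were in neither siAGO2 list, against 135 of 1565 promoter sites (8.63%, 7.33 to 10.1) and 10 of 71 other distal sites (14.1%, 7.83 to 24.0). Between 10 and 25 the shares were 50.0% (40.6 to 59.4) of 104 members and 44.3% (40.7 to 48.1) of 690 promoter sites, whose intervals overlap. Between 50 and 75 a single member of 65 and a single promoter site of 1666 were absent from both siAGO2 lists. That member was the site in Btk (a Tec family tyrosine kinase), at chr2L:8288162-8288525, with folds of 9.51 and 9.90 in mock 1 and mock 2.

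**Figure D5:**
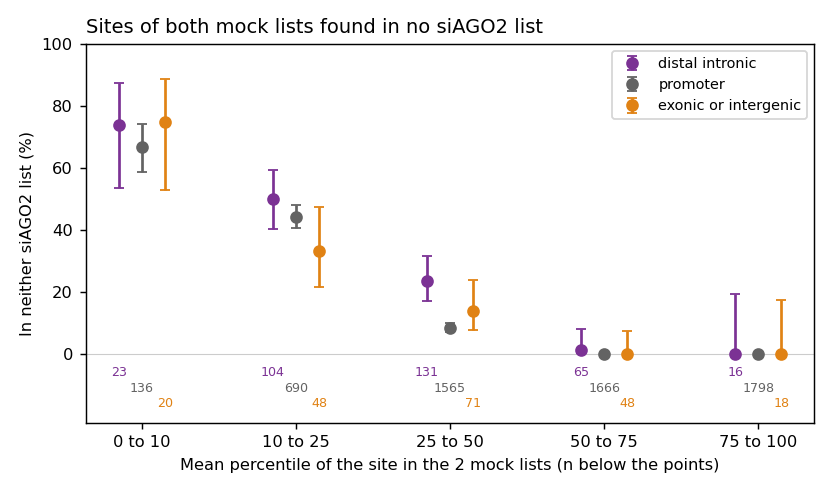
Share of sites held by both mock lists that were in neither siAGO2 list (y axis, %), by mean percentile in the mock lists (x axis), for members, promoter sites and exonic or intergenic sites, with 95% Wilson intervals and the number of sites under each point. Members and promoter sites part between percentiles 25 and 50 (23.7% against 8.63%).

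Pairs of single lists were compared in the same way. Of distal intronic peaks between percentiles 25 and 50 of mock 1, 87.1% (81.1 to 91.4) were found in mock 2, compared with 86.4% (84.7 to 88.0) of promoter peaks. The same peaks were found in siAGO2 1 and siAGO2 2 at 51.5% (43.9 to 59.1) and 50.3% (42.7 to 57.9), compared with 59.9% (57.5 to 62.2) and 69.7% (67.5 to 71.9) of promoter peaks. From mock 2 the shares were 67.5% (58.6 to 75.3) and 61.5% (52.5 to 69.9), compared with 82.4% (80.4 to 84.3) and 88.7% (86.9 to 90.2). Between the siAGO2 lists, 86.6% (76.4 to 92.8) of distal intronic and 96.3% (95.2 to 97.3) of promoter peaks of siAGO2 1 were found in siAGO2 2, whereas from siAGO2 2 to siAGO2 1 the shares were 89.0% (79.8 to 94.3) and 90.4% (88.7 to 91.9). The part of depth in these shares was not tested.

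After Btk, the strongest members in both mock lists and neither siAGO2 list were in CG17167 (folds of 8.49 and 8.15), sty (4.79 and 4.16), Mnt (9.21 and 7.52) and kibra (5.84 and 6.53). sty encodes Sprouty, an inhibitor of receptor tyrosine kinase signalling, and kibra an upstream component of the Hippo pathway. The Mnt site (chrX:3678194-3678573) held 10 GAGAG elements within 100 bp of its summit, the kibra site 4, and the Btk site none. Mnt had 6 members in all, of which 4 were in the mock lists alone.

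Where a member was held by all 4 lists, its strength was ranked among the 4974 sites that all lists shared. The median rank of the 161 members was 24.1 and 30.2 in mock against 26.2 and 20.9 in siAGO2, which overlapped (difference −3.59; exact permutation p = 0.667). Percentiles within whole lists gave medians of 51.6 and 48.4 in mock and 35.7 and 34.1 in siAGO2 (difference −15.1, exact permutation p = 0.33), but promoter sites also fell on that scale, from 69.7 and 64.7 to 58.7 and 61.1.

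Both siAGO2 ranks lay below both mock ranks at 50 of 161 members (31.1%, 24.4 to 38.6) and above both at 25 (15.5%, 10.7 to 21.9). Over all sites held by 4 lists these shares were 20.5% and 22.0%. Among promoter sites 19.9% (18.8 to 21.1) were lower and 22.3% (21.2 to 23.5) higher. At a mean rank of 40 or more, 18 of 45 members (40%, 27.0 to 54.5) were lower, against 20.9% (19.5 to 22.5) of promoter sites, and below a rank of 20 the shares were 25.8% (16.7 to 37.4) and 16.7% (14.3 to 19.4), whose intervals overlap.

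The widest downward gap was in dlp (the glypican Dally-like), at chr3L:14638544-14639051. Its folds were 17.9 and 16.0 in mock against 6.72 and 6.93 in siAGO2, and its ranks 61.6 and 57.7 against 24.9 and 27.4. It was followed by Eip74EF at 49.1 kb (folds of 13.9 and 9.45 against 5.14 and 4.31), Tet (a Tet family dioxygenase, 8.01 and 5.42 against 4.07 and 4.58), Pdk (pyruvate dehydrogenase kinase, 5.73 and 7.71 against 3.86 and 3.26) and N (the receptor Notch, 11.7 and 8.38 against 4.16 and 6.59). In all 5 the folds of the treatments did not overlap.

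The widest upward gap between the nearest ranks of the 2 groups was smaller, at 18.8 in Mes2 against 30.3 in dlp. Mes2 (chr3L:22948075-22949005) had folds of 4.35 and 4.63 in mock against 8.28 and 8.44 in siAGO2, with ranks of 16.1 and 21.9 against 40.8 and 49.1. Cow (a secreted carrier of Wingless) had folds of 5.62 and 5.78 against 8.33 and 8.33, Samuel 6.89 and 4.00 against 9.52 and 7.60, Mbs (the targeting subunit of myosin phosphatase) 3.63 and 2.95 against 5.86 and 5.93, and zfh2 (a zinc finger homeodomain factor) 7.28 and 6.94 against 10.2 and 10.0. These 10 sites were chosen for their gap, so their values are descriptions.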

How the data were processed

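The authors trimmed reads with cutadapt, aligned them to dm6 with bowtie2, dropped reads of mapping quality under 20 and Picard duplicates, and called peaks with MACS2 2.1.1.20160309 on each replicate against input (versions per the submitters' processing notes: cutadapt 1.10, Picard 2.11.0). The deposited score is 10 times the −log10 q-value. The deposited fold is a linear ratio of summit pileup to local background. For each summit the deposited columns further hold a −log10 p-value and a −log10 q-value, and all peaks passed a q threshold of 0.05. The 4 inputs have no list and were not analysed here.

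Peaks sharing at least 1 bp were merged, and a site took the values of its highest peak in each list. Gene models were Ensembl BDGP6.54 (release 115) without transposable element entries, on the dm6 assembly, inside which 26986 of 26987 peaks lay on the chromosome arms used. The percentile of a peak ranks its −log10 q-value within its own list, and ranks over shared sites use the 4974 sites of all 4 lists. A member in several genes was given 1 host, protein-coding and longest first. Groups were compared by exact permutation over lists, and ratios by exact sign flips. The count model of the study needs reads and was not run. Python 3.11.15, numpy 2.4.6, pandas 2.3.3 and scipy 1.17.1 were used, and the scripts were tested on simulated data. Sites named in the text were the 10 of highest mean percentile in all 4 lists, the 5 strongest held by mock lists alone, the 1 held by siAGO2 lists alone, the 5 widest rank gaps in each direction, up to 3 per gene list, and those of vri and Btk. The members and gene lists were chosen with earlier results of these data known. The result of 1 gene list is not reported here. Alternatives were equal list length, a stricter score, windows of 500 and 3000 bp, 3 lists, 50% overlap, class by summit, transposable elements kept, other sequence windows and transcripts, and each list left out.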

Additional observations from a re-analysis of the deposited data

How the results depend on the processing

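Of the alternatives to the main values, 114 kept the direction of a difference, the rough size of a count or the Wilson interval of a share and 17 did not. No group or class difference changed sign, although the difference in members held shrank from −135.5 to −35 with lists of equal length. There, 30 members were in both mock lists and neither siAGO2 list and 10 the reverse. A window of 500 bp gave 68.2% of members in a first intron, and a window of 3000 bp gave 243 members, 65 in the mock lists alone and 56.8% in a first intron. Requiring 3 lists gave 244 members, 56.6% in a first intron. Percentiles within whole lists separated 64.6% of members by treatment, against 46.6% by shared-site rank. The GAGAG share was 33.0% within 50 bp of the summit, and the first intron share 41.4% for the longest transcript. Windows, list minimum and sequence length change these values by construction. The members separated by treatment were 66.5% to 79.2% when 1 list was left out, since 1 list against 2 separates more often, and members in the siAGO2 lists alone were 3 to 5 without a mock list. Leaving out a list of the group named left no value for members in that group's lists alone. At named sites of all 4 lists, the whole-list percentile difference between treatments changed sign with lists of equal length at 6 of 29. The rank difference of −3.59 ranged from −6.14 to −0.40 over the 4 lists left out.

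The labels number the replicates but do not say whether same-numbered lists were paired. Deviations of same-numbered lists from their group means had a correlation of −0.069 over 4974 shared sites, which cannot decide this. With the replicate number as a block, the difference in members held was −135.5 with an exact sign-flip p of 0.5, the smallest that 2 pairs allow, and the rank difference was −3.59 (p = 1.0).

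The lists hold only peaks past a threshold and so an absent site may still carry NELF-E. The shallow siAGO2 libraries, with a median of 16 and 19 fragments per member summit, limit what their lists could hold. With 2 lists a group the exact permutation test could not pass 0.05.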

Other observations

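Although Kc167 is a female line, 3 members lay on the Y chromosome of the reference. The site in kl-5 (a dynein heavy chain of the sperm flagellum) was the only member in both siAGO2 lists and no mock list, with folds of 3.74 and 3.35, and it held 10 GAGAG elements within 100 bp of its summit. The sites in Ppr-Y and CCY were in mock 2, siAGO2 1 and siAGO2 2 and were missing from mock 1, the deepest library. Their folds were 3.14, 4.32 and 4.89 in Ppr-Y and 2.91, 3.77 and 3.30 in CCY. Only 4 members in all lacked mock 1 alone.

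With lists of equal length, the 10 members in both siAGO2 lists alone included these kl-5 and CCY sites, and also sites in ush, l(2)41Ab, Plod, sim, kibra, cnc, Gprk2 and CG32719. The Plod site had a fold of 2.27 in mock 1 and 4.62 and 6.62 in the siAGO2 lists, and the cnc site 3.45 and 2.46 in mock and 6.07 and 4.91 in siAGO2. These members were named after their values were seen.

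The GATAAG motif was found in 18 members of the mock lists alone (17.8%, 95% Wilson interval 11.6 to 26.4) and in 9 of 161 members of all 4 lists (5.59%, 2.97 to 10.3). The share over all members was 10.9% (8.11 to 14.5), and 8.05% of distal intronic tiles with no peak held it. Other distal sites held it at 13.2% (9.42 to 18.2) and promoter sites at 6.62%. Median GC content was 47.3% in members of the mock lists alone and 53.2% in members of all 4 lists. GATAAG was not compared at like GC content. GATAAG was 1 of 12 motifs compared, and the difference was noticed after the values were seen and was given no test.

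Among the 367 members, 12 overlapped a transposable element entry of the annotation, 2 of them each in skd and Raf. The Raf and skd sites among these were each in all 4 lists at 1 site and in 3 lists at the other.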
